A study of Mus musculus with 3 samples.

Results

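The genes described here are 10 molecules of leukocyte adhesion: the endothelial ligands Vcam1, Icam1 and Icam2, the selectins Selp and Sele, the integrin subunits Itgal, Itgb2, Itga4 and Itgb1, and the selectin ligand Selplg. They were chosen by symbol, and all 10 are among the 21750 features of the count matrix. Their unique molecular identifiers (UMIs, each a distinct captured transcript) were summed per cell type in 1 single-cell library, with cell types gated on markers outside this list. The library was made from hippocampal cells pooled from 5 Aldh1l1CreERT2;Rosa26-LSL-tdTomato mice, in which the promoter of the astrocyte gene Aldh1l1 drives a tamoxifen-inducible Cre that switches on tdTomato. All mice had received AAV-TIGRi-Hopx in the hippocampus, a Cre-dependent vector with an EGFP reporter that knocks down the homeobox gene Hopx. After tamoxifen, 3 weeks passed before the tissue was dissociated and sorted for cells positive for tdTomato and EGFP. The chromatin samples of primary astrocytes (anti-Flag and IgG) were not analysed here. Every cell type compared below therefore shares the genotype, the vector, the tamoxifen and the sort, and no library without the vector was used. With 1 library of pooled animals the spread between animals is unknown, so differences carry no p-value.

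Circulating leukocytes leave the blood in steps. Selectins on activated endothelium catch glycoproteins such as PSGL-1, the product of Selplg, and slow the cell. Integrins then hold it: LFA-1, made of the subunits encoded by Itgal and Itgb2, binds the ICAMs, and VLA-4, made of those encoded by Itga4 and Itgb1, binds VCAM-1. Resting brain endothelium is known for low levels of VCAM-1 and ICAM-1, and inflammatory signals raise them. Microglia and the macrophages at the borders of the brain carry several of the molecules of these steps without having to cross a vessel wall.

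Of 6672 barcodes, all distinct, 6485 with 41760631 UMIs passed the filters, at a median of 5564 UMIs per cell (610 to 42440), and 6075 of them were gated to a cell type. The vessel and barrier side held 3012 cells: 1586 endothelial-like, 653 ependymal-like, 603 choroid plexus-like, 146 astrocyte-like, 16 fibroblast-like and 8 mural-like. The immune side held 2937 cells: 2592 microglia-like, 269 border macrophage-like, 37 B cell-like, 22 T or NK cell-like, 14 recruited macrophage-like, 2 dendritic-like and 1 neutrophil-like. The astrocyte-like cells that the sort was meant to enrich were 2.25% of the kept cells, and the library held 3785 UMIs of Hopx (90.6 per 1000000), 370 of tdTomato and 93 of EGFP. All matched markers of the endothelial (9 of 9), choroid plexus, ependymal, astrocyte, microglia and border macrophage (8 of 8 each) classes reached at least 4 times the median over types in their own cells. For T or NK cell-like cells 9 of 11 did so, and for B cell-like cells 5 of 6. The cells were gated on these same markers, so this follows from the gate and is no separate support for the types. The leading genes of the B cell-like cells were Slpi and Jchain, of which Jchain encodes the joining chain of secreted antibodies. Haemoglobin transcript Hbb-bs led the endothelial-like genes, ahead of Ly6c1 and Cldn5.

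Levels are given as UMIs per 1000000 UMIs of a cell type (CPM) with exact 95% Poisson intervals, and shares as the percentage of cells with at least 1 UMI. Intervals and limits cover counting error within this library and not the spread between animals. Levels of different genes are not set against each other. The heat map of levels by cell type shows a different order of types for each molecule.

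**Figure D1:**
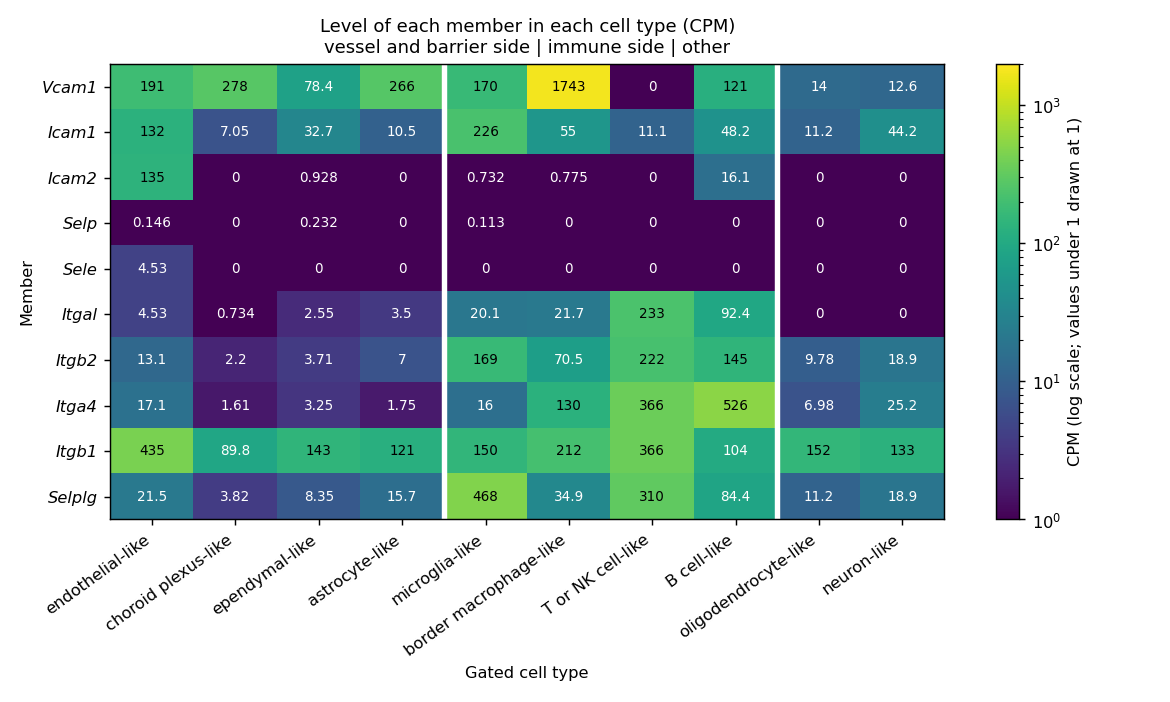
Level of the 10 members (rows) in the 10 gated cell types with at least 20 cells (columns), in CPM on a logarithmic colour scale with the value printed in each cell. The white lines part the vessel and barrier side, the immune side and the other types: Icam2 and Sele stand out in endothelial-like cells, Vcam1 in border macrophage-like cells (1743 CPM) and Selplg in microglia-like cells (468 CPM).

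Vcam1, which encodes the ligand of VLA-4, was not an endothelial transcript alone in this library. Its level was 191 CPM in endothelial-like cells (181 to 202), 278 CPM in choroid plexus-like cells (265 to 291), 266 CPM in astrocyte-like cells (225 to 312) and 78.4 CPM in ependymal-like cells (70.3 to 87.2). On the immune side it was 1743 CPM in border macrophage-like cells (1672 to 1817), 170 CPM in microglia-like cells (164 to 176), 121 CPM in B cell-like cells (81.3 to 172) and 0 in T or NK cell-like cells, where 3 UMIs would have been 33.2 CPM. The border macrophage-like cells were therefore highest, and the intervals of the next pair, choroid plexus-like and astrocyte-like, overlapped. Vcam1 was spread evenly over some types and held by few cells in others. It was seen in 83.3% of choroid plexus-like cells (median depth 10880 UMIs) and 91.8% of border macrophage-like cells (4446 UMIs), against 17.5% of endothelial-like cells (3592.5 UMIs) and 4.21% of oligodendrocyte-like cells (6566 UMIs). Border macrophage markers summed to 13.8 CPM in choroid plexus-like and 5.25 CPM in astrocyte-like cells, against 10836 CPM in border macrophage-like cells. With every cell thinned to 2000 UMIs the shares were 38.4%, 85.5%, 11.1% and 2.27% in the same order of types. The 10% of endothelial-like cells with most Vcam1 held 90.4% of its endothelial UMIs, and 1 cell had 84. In the B cell-like group, 90.0% of the 30 UMIs likewise lay in the top 10% of the cells, so that level rests on a few cells.

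Icam1, a ligand of LFA-1, was lower in endothelial-like than in microglia-like cells. It had 132 CPM in endothelial-like cells (123 to 140), 32.7 CPM in ependymal-like cells, 10.5 CPM in astrocyte-like cells and 7.05 CPM in choroid plexus-like cells. It had 226 CPM in microglia-like cells (219 to 233), 55.0 CPM in border macrophage-like cells and 48.2 CPM in B cell-like cells, and the intervals of these last 2 types overlapped. A single Icam1 UMI was found in the T or NK cell-like cells. Of all Icam1 UMIs, 16.5% came from endothelial-like cells and 73.2% from microglia-like cells. Icam1 was as concentrated as Vcam1 within the endothelium: it was seen in 16.5% of endothelial-like cells (11.5% at 2000 UMIs), and the top 10% of them held 88.6% of its UMIs. In microglia-like cells it was seen in 55.6% (30.2% at 2000 UMIs), against 2.74% of astrocyte-like cells (1.01% at 2000 UMIs), at median depths of 6469.5 and 2833.5 UMIs.

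Icam2, a ligand of LFA-1 that resting endothelium is known to carry, was found almost wholly in endothelial-like cells. Endothelial-like cells held 92.6% of its 1001 UMIs, at 135 CPM (127 to 144). The next type was B cell-like at 16.1 CPM from 4 UMIs, and microglia-like cells had 0.732 CPM from 13 UMIs. It was at 0 in choroid plexus-like, astrocyte-like, oligodendrocyte-like, neuron-like and T or NK cell-like cells. Unlike Vcam1 and Icam1, it was seen in many endothelial-like cells at low counts: 38.6% had a UMI (22.3% at 2000 UMIs), no cell had more than 8, and the top 10% held 44.9%. In microglia-like cells the share was 0.463%.

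Sele, the endothelial selectin made on inflammatory activation, had 31 UMIs in the library, all in 13 endothelial-like cells (4.53 CPM, 3.07 to 6.42). No other gated type had a Sele UMI, and in microglia-like cells 3 UMIs would have been 0.169 CPM. Selp, the selectin stored in platelets and endothelium, had 4 UMIs in all and was not measurable here: 1 in endothelial-like, 1 in ependymal-like and 2 in microglia-like cells. The 13 cells with Sele held Vcam1 and Icam1 more often than the other endothelial-like cells, but not Icam2. Vcam1 was seen in 84.6% of them and averaged 1908 CPM, against 17.0% and 165 CPM in the 1573 endothelial-like cells without Sele. Icam1 was seen in 69.2% of them and averaged 939 CPM, against 16.0% and 119 CPM. Icam2 was seen in 38.5% of them, against 38.6% of the cells without Sele. The cells with Sele were deeper, with a median of 7253 UMIs, against 3583 UMIs in those without, and the part of depth in these shares was not tested.

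Promoter sequences in the RefSeq table of build GRCm38.p6 matched 5 of the 10 members: Icam1, Sele, Selp, Itga4 and Itgb1. Those of Icam1 and Sele are shown because both are cytokine-induced endothelial genes and both were high in the venous-like cells described below. Each is the 250 bases before the annotated start on the plus strand, at chr9:21015690-21015939 for Icam1 and chr1:164047984-164048233 for Sele, with capitals marking matches to GGNNNTTCC, a short form of the site bound by NF-kappaB, on either strand.
Icam1: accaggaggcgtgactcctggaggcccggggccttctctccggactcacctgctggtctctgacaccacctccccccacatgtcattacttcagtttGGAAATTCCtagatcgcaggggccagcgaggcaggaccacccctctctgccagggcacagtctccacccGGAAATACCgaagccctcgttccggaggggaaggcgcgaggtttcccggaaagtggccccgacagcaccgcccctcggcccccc
Sele: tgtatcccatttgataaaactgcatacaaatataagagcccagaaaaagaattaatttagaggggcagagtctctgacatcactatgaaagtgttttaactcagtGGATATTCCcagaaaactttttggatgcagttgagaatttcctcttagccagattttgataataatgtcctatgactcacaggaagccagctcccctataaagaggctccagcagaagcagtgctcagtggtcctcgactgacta
The Icam1 window held a match 153 to 145 bases before the start, which reads as a match on both strands, and another on the minus strand 84 to 76 bases before it. The Sele window held 1 match, 145 to 137 bases before the start. The motif was in 4 of the 5 member promoters, all but that of Itga4, and in 15.7% of 32851 mouse promoters of the same length. The letters AGGAAGT, an ETS core, were in 0 of the 5 promoters and in 7.69% of all, searched on both strands. TATAAA, searched only in the direction of transcription, was in 1 of the 5, that of Sele, and in 7.59% of all. A match describes these letters and does not show that a factor binds there.

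The leukocyte partners were ordered differently from the ligands. Itgal, the alpha subunit of LFA-1, had 4.53 CPM in endothelial-like cells, against 233 CPM in T or NK cell-like cells (144 to 356), 92.4 CPM in B cell-like cells (58.6 to 139), 21.7 CPM in border macrophage-like cells and 20.1 CPM in microglia-like cells (18.1 to 22.3). It was seen in 63.6% of T or NK cell-like cells (median depth 3684 UMIs), in 11.3% of microglia-like cells (6469.5 UMIs) and in 0.498% of choroid plexus-like cells. Itgb2, the beta subunit shared by LFA-1 and the complement receptor Mac-1, had 13.1 CPM in endothelial-like cells, against 222 CPM in T or NK cell-like cells (135 to 342), 169 CPM in microglia-like cells (163 to 175), 145 CPM in B cell-like cells (101 to 200) and 70.5 CPM in border macrophage-like cells. The intervals of the T or NK cell-like, microglia-like and B cell-like levels of Itgb2 overlapped, while those of Itgal did not. Of the 36 Itgb2 UMIs in B cell-like cells, 22 were in 1 cell. All 14 recruited macrophage-like cells had an Itgb2 UMI, at 541 CPM.

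Itga4, the alpha subunit of VLA-4, was highest in the lymphocytes. It had 17.1 CPM in endothelial-like cells, against 526 CPM in B cell-like cells (440.2 to 625), 366 CPM in T or NK cell-like cells (252 to 513), 130.2 CPM in border macrophage-like cells (111 to 151) and 16.0 CPM in microglia-like cells. It was seen in 83.8% of B cell-like, 63.6% of T or NK cell-like, 39.4% of border macrophage-like and 5.63% of microglia-like cells, against 1.33% of choroid plexus-like cells. The 37 B cell-like cells held all 6 B cell markers, at 1949 CPM in sum. They also held 4 of 6 recruited macrophage markers at 10686 CPM (Ccr2 and Fn1 at 0). Of these, Ly6c2 was itself among the leading genes of the B cell-like cells. Microglia markers had UMIs for 7 of 8, at 354 CPM, and 27.0% of the B cell-like cells had at least 3 UMIs of C1q genes. Whether these transcripts were made by the B cell-like cells themselves, and their part in the B cell-like levels, was not tested. The partner of Itga4, Itgb1, encodes the beta subunit that most matrix-binding integrins also use and was found in every type with at least 20 cells. Itgb1 had 435 CPM in endothelial-like cells (420.0 to 451), 143 CPM in ependymal-like, 121 CPM in astrocyte-like and 89.8 CPM in choroid plexus-like cells, against 366 CPM in T or NK cell-like cells (252 to 513), 212 CPM in border macrophage-like, 150.3 CPM in microglia-like and 104 CPM in B cell-like cells. The 8 mural-like cells had 1301 CPM of Itgb1 and the 16 fibroblast-like cells 459 CPM, both cell kinds that sit in matrix. Itgb1 was seen in 75.5% of endothelial-like cells (57.5% at 2000 UMIs).

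Selplg was foremost a microglial transcript by the number of molecules. It had 21.5 CPM in endothelial-like cells and 3.82 CPM in choroid plexus-like cells, where 2.82% had a UMI. Of its 9020 UMIs, 92.3% lay in microglia-like cells, where it had 468 CPM (458 to 479) and was seen in 84.6% of cells (56.1% at 2000 UMIs). T or NK cell-like cells had 310.2 CPM (206 to 448), B cell-like cells 84.4 CPM and border macrophage-like cells 34.9 CPM. No neighbours among the first 5 types in this order (microglia-like, T or NK cell-like, B cell-like, border macrophage-like, endothelial-like) had overlapping intervals.

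The first comparison asked how the vessel and barrier side, taken as a whole, differed from the immune side. The endothelial ligands did not all lie on the vessel side. Icam2 was 54.5-fold higher on the vessel and barrier side (49.96 against 0.917 CPM, 95% interval of the ratio 34.3 to 92.4), and Sele was at least 10.9-fold higher (31 UMIs against 0). Vcam1 was 198 CPM on the vessel and barrier side against 271 CPM on the immune side, a ratio of 0.731 (0.701 to 0.762), and Icam1 was 58.8 against 209 CPM, a ratio of 0.281 (0.263 to 0.301). The leukocyte partners other than Itgb1 were lower on the vessel and barrier side: Itgal 8.87-fold, Itgb2 24.5-fold, Itga4 4.37-fold and Selplg 36.8-fold. With the doublets called by Scrublet left out the ratios of these 4 were 0.0539 for Itgal, 0.0185 for Itgb2, 0.126 for Itga4 and 0.0117 for Selplg, each over 1.5 times lower. With each cell type weighed equally they were 0.0308, 0.0430, 0.0228 and 0.0550 in the same order. Itgb1 was 234 against 156 CPM, a ratio of 1.50 (1.43 to 1.57). A gene was called when its 2 levels were at least 4-fold apart with at least 10 UMIs over both groups. By that rule 2 of the 9 members with enough UMIs were higher, where 26.8% of 15123 genes were, and 4 were lower, where 9.05% of genes were. The median log2 ratio was -1.83 over the 9 members and 0.46 over all genes tested. Microglia-like cells gave 90.5% of the immune UMIs, but the sum did not follow that type for Vcam1 and Itga4. Vcam1 was 170 CPM in microglia-like cells, below the vessel and barrier side, and border macrophage-like cells held 2250 of its 5330 immune UMIs. Itga4 was 16.0 CPM in microglia-like cells, against 33.9 CPM on the immune side, and they held 285 of its 666 immune UMIs. With each cell type weighed equally Itgb1 had a ratio of 0.947 and Icam1 one of 0.535.

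**Figure D2:**
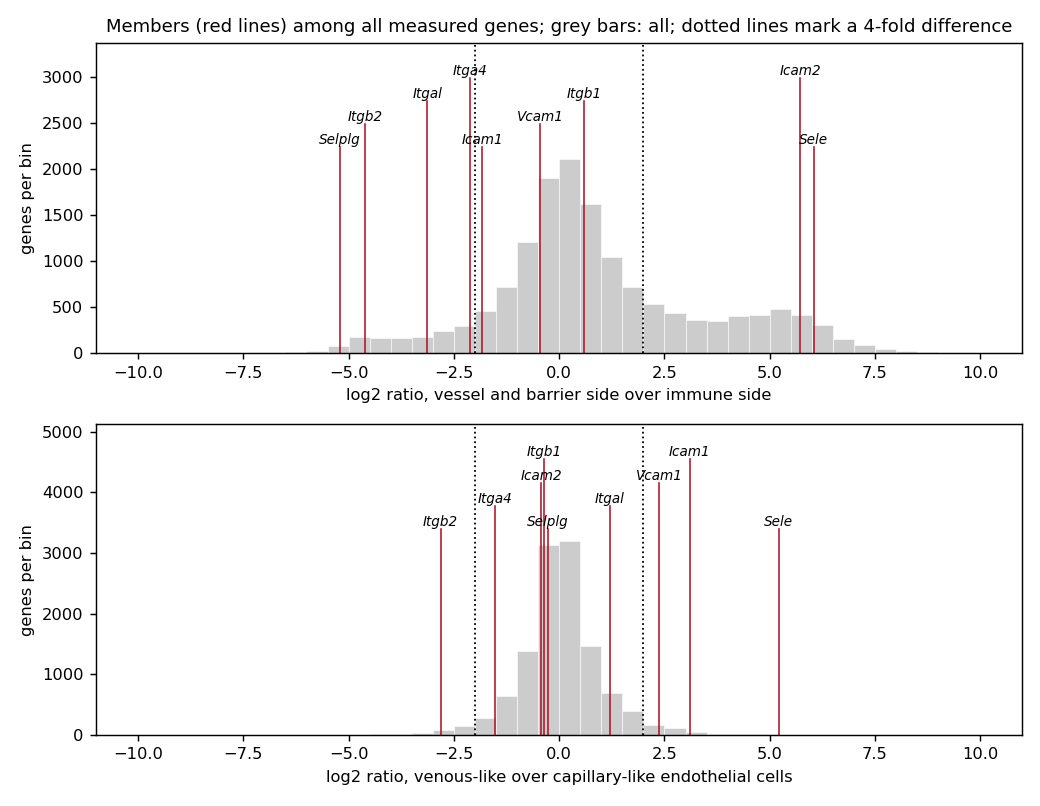
Log2 ratios (0.5 UMIs added to each group) of all genes with at least 10 UMIs (grey bars, genes per bin of 0.5) and of the members (red lines), for the vessel and barrier side over the immune side (top) and for venous-like over capillary-like endothelial cells (bottom). Dotted lines mark a 4-fold difference. Selplg, Itgb2, Itgal and Itga4 lie left of it in the top panel, and Sele, Icam1 and Vcam1 right of it in the bottom panel.

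The largest types of the 2 sides were then set against each other. Endothelial-like cells differed from microglia-like cells in Icam2, which was 185-fold higher (135 against 0.732 CPM, ratio interval 108 to 349), and Sele, which was at least 26.8-fold higher. Itgal was 4.44-fold lower in endothelial-like cells (4.53 against 20.1 CPM), Itgb2 12.9-fold (13.1 against 169 CPM) and Selplg 21.8-fold (21.5 against 468 CPM). Itgb1 was 2.90 times as high in endothelial-like cells (2.75 to 3.05) and Icam1 0.583 times (0.542 to 0.627), both short of 4-fold. Itga4 was 17.1 against 16.0 CPM, with a ratio interval of 0.851 to 1.32. Vcam1 was close in both, at 191 against 170 CPM. Its ratio was 1.13 (1.05 to 1.20), 0.890 with TMM factors and 0.800 at 2000 UMIs per cell, so no direction is given. Of the 9 members measured, 2 were at least 4-fold higher in endothelial-like cells, where 15.6% of 13688 genes were, and 3 were lower, where 9.96% were. The median log2 ratio was 0.09 over the members and 0.29 over all genes. The plot of both levels per member shows these gaps.

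**Figure D3:**
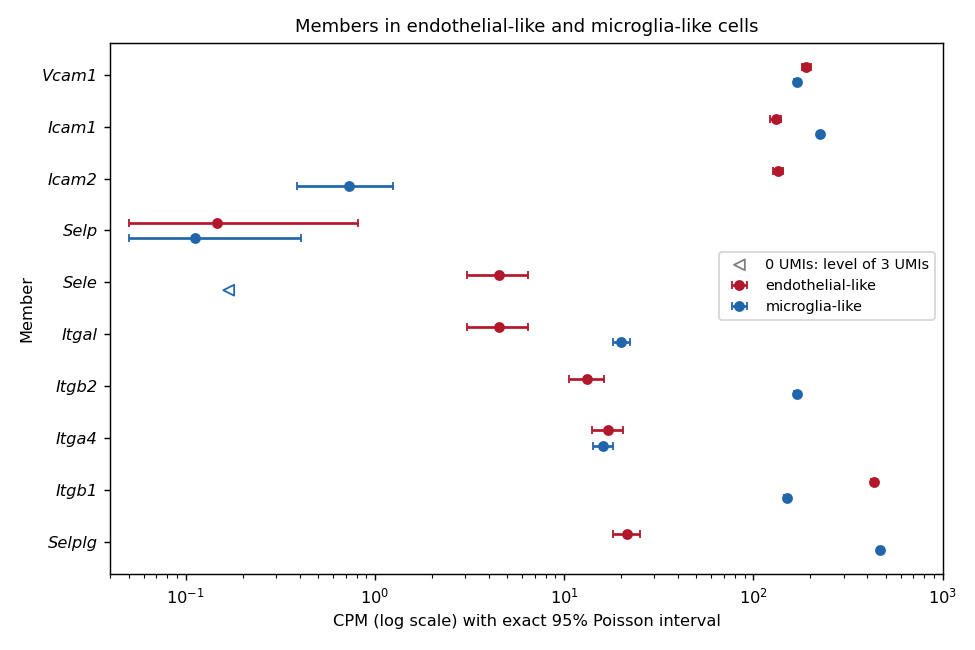
Level of each member in endothelial-like (red) and microglia-like (blue) cells, in CPM on a logarithmic axis, with exact 95% Poisson intervals and an open triangle at the level of 3 UMIs where the count was 0. Vcam1, Itga4 and Selp lie close together in both types, Icam2 and Sele are far to the right in endothelial-like cells, and Selplg and Itgb2 are far to the right in microglia-like cells.

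Most of the leukocyte transcripts in endothelial-like cells came from 1 group of them. The endothelial-like cells were clustered again without the members, and sub-cluster 5 (85 cells, median 8947 UMIs, leading genes Jchain, Cd52 and Lyz2) held 29 of the 31 endothelial UMIs of Itgal, 82 of the 90 of Itgb2, 131 of the 147 of Selplg and 73 of the 117 of Itga4. It also held all 8 microglia markers, summing to 2100.1 CPM against 173 to 342 CPM in sub-clusters 0 to 4. All 8 border macrophage markers had UMIs there, at 493 CPM against 45.5 to 83.7 CPM. Of 11 T or NK cell markers 9 had UMIs in sub-cluster 5, at 134 CPM against 0 to 1.595 CPM in sub-clusters 0 to 4. Of 6 B cell markers 4 had UMIs there, at 50.7 CPM against 0.831 to 1.897 CPM. The part of each kind of RNA in the leukocyte transcripts of sub-cluster 5 was not tested. Its 9 endothelial markers summed to 8148 CPM, against 17341 to 20337 CPM in sub-clusters 0 to 4. In the other 1501 endothelial-like cells Itgal was at 0.333 CPM, Itgb2 at 1.33 CPM, Selplg at 2.67 CPM and Itga4 at 7.33 CPM. The ligands depended on it less: sub-cluster 5 held 21.8% of the endothelial Vcam1 UMIs, 19.9% of those of Icam1, 7.23% of those of Icam2 and 8.58% of those of Itgb1. The other cells had 170.4 CPM of Vcam1, 120.3 CPM of Icam1, 143 CPM of Icam2 and 454 CPM of Itgb1. With this sub-cluster and sub-cluster 7 left out, endothelial-like over microglia-like ratios were 0.0168 for Itgal, 0.00799 for Itgb2, 0.00577 for Selplg, 0.463 for Itga4 and 0.983 for Vcam1, and Icam1 joined the members at least 4-fold lower on the vessel and barrier side, at 0.247.

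Within the endothelium, the zones of the vessel tree differed in the ligands. Zones were gated on markers such as Nr2f2, Lrg1 and Il1r1 for veins, Gkn3, Bmx and Sema3g for arteries, and Mfsd2a, Rgcc and Slc16a1 for capillaries, which gave 37 venous-like, 52 arterial-like and 1279 capillary-like cells. The remaining 218 endothelial-like cells were not zoned. Sub-cluster 4 (409 cells), with the arterial markers Gkn3 and Sema3g among its leading genes, outnumbered the arterial-like, venous-like and unzoned cells together. The capillary-like group therefore held some of its cells. Sub-cluster 1 (209 cells), led by the venous markers Lrg1, Il1r1 and Nr2f2, was larger than the venous-like group. Ratios to the capillary-like group are thus not contrasts of pure zones. Veins after the capillaries are the classical site of leukocyte exit.

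Venous-like cells had 698 CPM of Vcam1, against 135 CPM in capillary-like cells, a ratio of 5.18 (4.35 to 6.15). They had 796 CPM of Icam1, against 93.3 CPM, a ratio of 8.54 (7.18 to 10.1). Sele had 13 UMIs in 5 of 37 venous-like cells, against 8 UMIs in 4 of 1279 capillary-like cells, or 55.7 against 1.46 CPM and a ratio of 38.0 (14.6 to 106). Vcam1 was seen in 73.0% of venous-like cells (47.1% at 2000 UMIs), against 13.9% of capillary-like cells (8.37%), and Icam1 in 48.6% (44.1%), against 14.8% (9.94%). At 2000 UMIs no venous-like cell kept a Sele UMI, so the Sele ratio rests on full depth (median 5089 UMIs in venous-like, 3571 UMIs in capillary-like cells). Icam2 did not follow them: it had 94.2 CPM in venous-like cells against 129 CPM in capillary-like cells, and its ratio interval of 0.455 to 1.12 held 1. Itgb1 was 338 against 437 CPM, a ratio of 0.774 (0.610 to 0.968). Of the 9 members measured, 3 were at least 4-fold higher in venous-like cells, where 2.58% of 11842 genes were, and 2 were lower, where 11.6% were. The lower calls rest on very few molecules, and neither difference was beyond counting error. Itgb2 had 0 venous UMIs against 82 capillary ones, with a ratio interval of 0 to 1.08, and Itga4 had 1 against 101, a ratio of 0.232 with an interval of 0.00581 to 1.32. Among all genes, 1227 of the 1376 lower calls likewise had 0 UMIs in venous-like cells. The median log2 ratio was -0.26 over the members (-0.22 with 0 set to 3 UMIs) and 0.03 over all genes.

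The venous-like cells carried RNA of choroid plexus too. All 8 choroid plexus markers had UMIs there and summed to 15976 CPM, of which Ttr was 15651 CPM, against 1256 CPM in capillary-like cells. Microglia markers had UMIs for 6 of 8, with Tmem119 and Olfml3 at 0, and summed to 197 CPM, against 475 CPM in capillary-like cells. Of the 37 venous-like cells, 6 were in the sub-clusters 5 and 7, the second of which was led by Ttr. In the other 31 venous-like and 1211 capillary-like cells the ratio was 7.68 for Vcam1, 8.55 for Icam1 and 37.9 for Sele. Ttr was at 284 CPM in those 31 venous-like cells. The part of RNA from other cell types in the venous-like levels was not tested.

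Arterial-like cells showed the opposite for Icam1 and a higher Icam2. Icam2 had 321 CPM in arterial-like cells, against 129 CPM in capillary-like cells, a ratio of 2.49 (1.90 to 3.23), and was seen in 61.5% against 37.5% of cells. Icam1 had 2 UMIs in 52 arterial-like cells, against 510 in capillary-like cells, a ratio of 0.109 (0.0132 to 0.397). Vcam1 had 173 against 135 CPM, with a ratio interval of 0.886 to 1.82, and Itgb1 had 485 against 437 CPM, with an interval of 0.894 to 1.36. Neither difference was beyond counting error. Of the 8 members measured, 0 were at least 4-fold higher in arterial-like cells, where 1.88% of 11782 genes were, and 4 were lower (Icam1, Itgal, Itga4 and Selplg), where 15.7% were. For the 3 leukocyte partners this call rests on 0, 0 and 1 arterial UMIs, and their ratio intervals reach 4.44 for Itgal, 1.04 for Itga4 and 1.26 for Selplg, so that none was beyond counting error. Of the 1855 genes called lower, 1680 had 0 arterial UMIs. The median log2 ratio was -0.92 over the members (-0.06 with 0 set to 3 UMIs) and 0.05 over all genes.

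**Figure D4:**
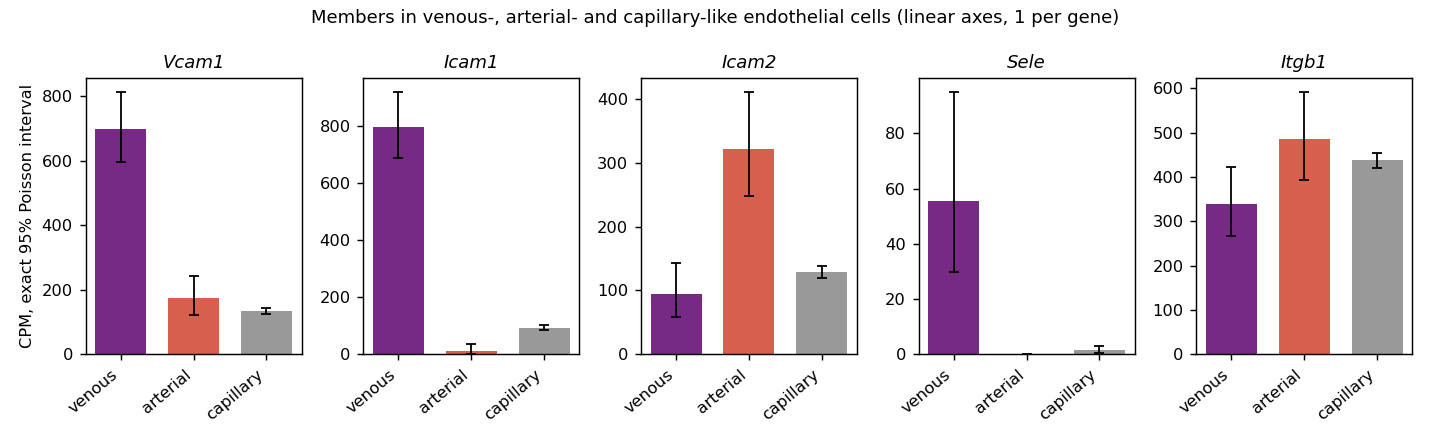
Level of 5 members in venous-like (37), arterial-like (52) and capillary-like (1279) endothelial cells, in CPM on linear axes that start at 0, with exact 95% Poisson intervals (none is drawn where the count was 0). Vcam1, Icam1 and Sele are tallest in venous-like cells, and Icam2 in arterial-like cells. Itgb1 is lowest in venous-like cells (338 CPM, against 437 CPM in capillary-like and 485 CPM in arterial-like cells).

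Sub-clusters of endothelial-like cells differed widely in Vcam1 and Icam1 and less in Icam2. Among endothelial sub-clusters, Vcam1 was highest in sub-cluster 2 (151 cells, led by the interferon-induced genes Cxcl9 and Ifit2), at 511 CPM (461 to 566), against 153 CPM in the other endothelial-like cells. Icam1 was highest in sub-cluster 1 (209 cells, led by Lrg1, Il1r1 and Nr2f2), at 309 CPM (279 to 342), against 91.7 CPM in the others. Vcam1 in sub-cluster 1 was 298 CPM (268 to 329), against 167 CPM in the others, a ratio of 1.78 (1.58 to 2.01). Of the 31 Sele UMIs, 16 were in sub-cluster 1 and 11 in sub-cluster 2. Sub-cluster 4 (409 cells, led by Gkn3 and Fbln2) had the highest Icam2, at 199 CPM (178 to 222), with 92.3 CPM of Vcam1 and 26.6 CPM of Icam1. Sub-cluster 0 (304 cells) had 28.2 CPM of Vcam1 but 94.7 CPM of Icam1, and sub-cluster 3 (409 cells) was low in both, at 54.3 and 23.9 CPM. From lowest to highest over the 6 sub-clusters with at least 20 cells, Vcam1 spanned 18.1-fold, Icam1 12.9-fold, Icam2 2.52-fold and Itgb1 1.59-fold. Lrg1, Il1r1 and Nr2f2 are also venous gate markers, so the sub-cluster 1 and venous-like values may share cells. How many they share was not counted.

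The same ligands varied among ependymal-like cells. In the sub-cluster led by Mx1, Rsad2 and Cxcl10, all interferon-induced genes (47 cells), Vcam1 had 425 CPM (356 to 502), against 50.4 CPM in the other ependymal-like cells, and Icam1 had 164 CPM (123 to 215), against 22.1 CPM. Its next leading genes were Clic5, Slc7a1, Trib3, Chac1 and Mthfd2. In this sub-cluster 3 of 9 endothelial markers had UMIs and summed to 27.9 CPM, with Cldn5, Flt1 and Tie1 at 0, and 1 of 8 border macrophage markers had 3.10 CPM. Microglia markers had UMIs for 5 of 8 and summed to 248 CPM, against 350.4 CPM over all ependymal-like cells. The ependymal sub-cluster led by C4b and Col6a5 (110 cells) also had Ifi44 and Zbp1 among its leading genes. It had 102 CPM of Vcam1, against 75.3 CPM in the others, and 20.1 against 34.3 CPM of Icam1. The choroid plexus sub-cluster led by Ifit1 and Isg15 (87 cells) had 261 CPM of Vcam1, against 280 CPM in the others. A link of these ligands to interferon was not tested. Over sub-clusters of at least 20 cells, Vcam1 ran from 240.0 to 289 CPM in choroid plexus-like cells (5 sub-clusters) and from 1621 to 1832 CPM in border macrophage-like cells (4 sub-clusters). A further choroid plexus sub-cluster of 19 cells, led by Lyz2, Cd74 and C1qa, had 412 CPM of Vcam1 (343 to 491), against 271 CPM in the other choroid plexus-like cells. Border macrophage markers had UMIs for 6 of 8 there, with F13a1 and Lyve1 at 0, and summed to 258 CPM, against 0 to 3.85 CPM in the other 5, and their part in its Vcam1 was not tested.

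Microglia-like cells differed among themselves in Vcam1, Icam1 and Selplg more than in Itgb2. Over their 8 sub-clusters with at least 20 cells Itgb2 ran from 112 to 186 CPM, a 1.66-fold span, while Icam1 spanned 10.7-fold, Vcam1 13.8-fold and Selplg 8.44-fold. Sub-cluster 2 (503 cells, led by Hpgd, Csmd3 and Sox4) had the highest Icam1 and Selplg, at 499.6 and 979 CPM, and the lowest Vcam1, at 53.9 CPM. Itgal was at 1.57 CPM there, against 23.2 CPM in the other microglia-like cells. Sub-cluster 4 (384 cells, led by Il12b and Arl5c) also had high Icam1, at 419 CPM. Sub-cluster 0 (287 cells, led by Spp1 and Gpnmb, genes of lipid-laden and disease-associated microglia) had 97.8 CPM of Icam1 and 172 CPM of Selplg. Sub-cluster 5 (303 cells, led by Rsad2 and Cxcl11) had 288 CPM of Vcam1, against 151 CPM in the others. Among the 8 sub-clusters with at least 20 cells, Vcam1 and Itga4 were highest in sub-cluster 8 (76 cells, led by Pde7b and Ccl8). They had 742 and 190.1 CPM there, against 151 and 10.5 CPM in all other microglia-like cells, while Selplg was lowest there, at 116 CPM. All 8 border macrophage markers had UMIs in sub-cluster 8 and summed to 1512 CPM, against 43.7 to 202 CPM in the other 7, and its microglia markers to 2157 CPM. The part of border macrophage RNA in its Vcam1 and Itga4 was not tested. Sub-cluster 7, with only 15 cells and led by Jchain, Slpi and Ly6c2, had more Itga4, at 271 CPM (202 to 357). B cell markers summed to 558 CPM in sub-cluster 7, and their part in its Itga4 was not tested.

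**Figure D5:**
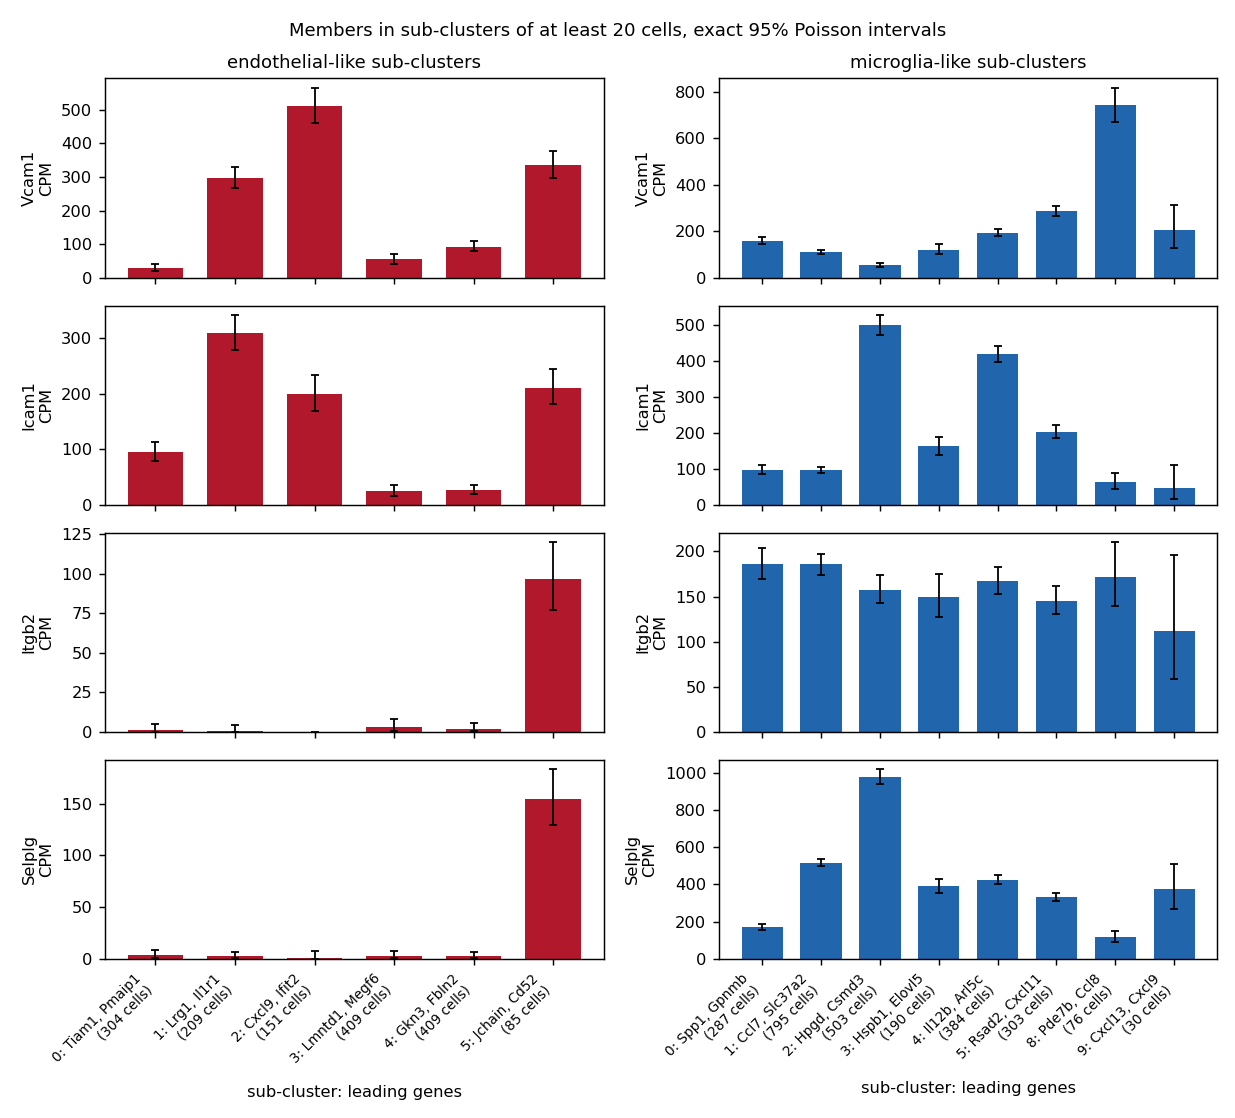
Level of Vcam1, Icam1, Itgb2 and Selplg (rows) in endothelial-like (left) and microglia-like (right) sub-clusters of at least 20 cells, in CPM on linear axes that start at 0, with exact 95% Poisson intervals (none is drawn where the count was 0). Labels give each sub-cluster's leading genes and cells. Itgb2 and Selplg are near 0 in endothelial sub-clusters 0 to 4 and present in sub-cluster 5, and Icam1 and Selplg share their tallest microglial bar.

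Lymphocytes and resident immune cells were compared last, to see which subunits of LFA-1 and VLA-4 set them apart. T or NK cell-like cells had 233 CPM of Itgal, against 20.1 CPM in microglia-like cells, a ratio of 11.6 (7.08 to 18.0), and 366 against 16.0 CPM of Itga4, a ratio of 22.8 (15.4 to 32.7). The beta subunits differed less: Itgb1 was 366 against 150.3 CPM, a ratio of 2.43 (1.67 to 3.42), and Itgb2 was 222 against 169 CPM, with an interval of 0.799 to 2.03. Selplg was 310.2 against 468 CPM, a ratio of 0.662 (0.440 to 0.958). The ligands were nearly absent from the T or NK cell-like cells. Vcam1 had 0 UMIs in T or NK cell-like cells, which makes it at least 5.10-fold lower, and Icam1 had 1 UMI against 4007, a ratio of 0.0491 (0.00124 to 0.274). Of the 8 members measured, 2 were at least 4-fold higher in T or NK cell-like cells, where 8.87% of 12597 genes were, and 3 were lower (Vcam1, Icam1 and Icam2), where 39% were. Icam2 is among them with 0 UMIs against 0.732 CPM, below the 33.2 CPM that 3 UMIs would make, and its difference was not detectable at this depth. Of the 4916 genes called lower, 4401 had 0 UMIs in these 22 cells. The median log2 ratio was 0.86 over the members (0.84 with 0 set to 3 UMIs) and 0.48 over all genes. In the T or NK cell-like cells 4 of 8 microglia markers had UMIs (266 CPM in sum, with P2ry12, Sall1, Siglech and Olfml3 at 0), and all border macrophage and B cell markers were at 0. Recruited macrophage markers had UMIs for 3 of 6 (Ccr2, Ly6c2 and Plac8) and summed to 1352 CPM, with Chil3, Saa3 and Fn1 at 0. Whether the T or NK cell-like cells made these transcripts themselves, and their part in these values, was not tested.

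Partner subunits and ligands were also counted in the same cells, at 2000 UMIs per cell. Vcam1 and Icam1 were both seen in 41 of 1384 endothelial-like cells, or 2.96%, where the product of their separate shares is 1.28%. In microglia-like cells the figures were 5.73% and 6.81%. Itga4 and Itgb1 were both seen in 8 of 21 T or NK cell-like cells, or 38.1%, where the product is 24.9%. Itgal and Itgb2 were both seen in 2 of the same 21 cells, or 9.52%, where the product is 12.7%. These are descriptions of sparse counts, in which most cells show 1 of the genes at most.

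Other genes of the cascade were read from 5 lists, to be set beside the 26.8% of all genes at least 4-fold higher and the 9.05% lower on the vessel and barrier side. Of 16 genes of endothelial junctions and leukocyte passage, 11 were at least 4-fold higher on the vessel and barrier side and 0 lower, with a median log2 ratio of 3.97 against 0.46 over all genes. The largest were Emcn (endomucin, 203-fold, 135 against 0.662 CPM), Podxl (podocalyxin, 129-fold) and Cav1 (caveolin, 126-fold). Of 14 other integrin subunits, 3 were higher and 7 lower (median log2 ratio -2.09). Itga1, a collagen receptor subunit, was 119-fold and Itgb8 50.8-fold higher on the vessel and barrier side, and Itgam, the alpha subunit of Mac-1, was 37.2-fold lower. Of 12 matched genes of integrin activation, 1 was higher and 7 lower (median -3.82). Rasgrp2, a Rap1 activator, was 55.0-fold higher, Vav1 35.0-fold lower and Coro1a 25.3-fold lower. Of 10 measured genes of selectin ligands and their glycosylation, 0 were higher and 3 lower (median -1.57): Fut7, the fucosyltransferase of selectin ligands (2 against 20 UMIs, ratio 0.105, interval 0.0119 to 0.433), B4galt1 (7.05-fold) and Spn (4.28-fold). Of 8 genes of NF-kappaB feedback and endothelial activation, 0 were higher and 4 lower (median -1.89). Tnfaip3 was 14.5-fold, Nfkbie 7.40-fold and Birc3 6.12-fold lower.

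The same lists, in the order just given, had in endothelial-like over microglia-like cells 11 genes higher and 1 lower of 16, 1 and 5 of 13, 1 and 7 of 12, 0 and 3 of 10, and 0 and 2 of 8. Their median log2 ratios were 4.52, -1.90, -3.19, -0.95 and -1.22, against 0.29 over all genes, of which 15.6% were higher and 9.96% lower. Emcn was 499-fold, Podxl 332-fold and Esam, a junction protein, 328-fold higher in endothelial-like cells. Among the integrins and their activators Itga1 was 441-fold and Rasgrp2 344-fold higher there, while Itgam was 21.1-fold, Itgb5 13.9-fold, Apbb1ip 20.7-fold and Vav1 19.1-fold lower. Gcnt1, which builds the core of selectin ligand sugars, was 9.04-fold lower, and the hyaluronan receptor gene Cd44 8.72-fold lower.

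Between the zones most of the lower calls in the lists were of genes at 0 UMIs. In venous-like over capillary-like cells the counts were 1 higher and 1 lower of 14, 1 and 1 of 11, 1 and 0 of 12, 0 and 0 of 7, and 0 and 1 of 8, with medians of -0.14, -0.06, 0.20, 0.16 and 0.59 against 0.03 over all genes, of which 2.58% were higher and 11.6% lower. The 3 lower genes (Jam3, Itga9 and Nfkbie) had 0 venous UMIs, and their limits allow no fold. With 0 set to 3 UMIs, the medians of the integrin and selectin ligand lists were 0.47 and -0.08, of the opposite sign. Ackr1, a chemokine-binding receptor known from venules, was 16.2-fold higher in venous-like cells, from 9 against 13 UMIs (38.5 against 2.38 CPM, ratio interval 6.11 to 41.0). In arterial-like over capillary-like cells the counts were 0 higher and 2 lower of 14, 0 and 3 of 11, 0 and 2 of 12, 0 and 1 of 7, and 0 and 1 of 8, with medians of 0.30, 0.16, -0.32, -0.62 and -0.25 against 0.05 over all genes, of which 1.88% were higher and 15.7% lower. All of the lower genes but Alcam had 0 arterial UMIs, with limits that allow no fold. Alcam, an adhesion molecule of endothelium and leukocytes, had 1 UMI in arterial-like cells against 273 in capillary-like cells (ratio 0.102, interval 0.00258 to 0.574).

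In T or NK cell-like over microglia-like cells the counts were 3 higher and 10 lower of 13, 2 and 9 of 13, 2 and 2 of 12, 1 and 3 of 10, and 1 and 0 of 8. Over all genes 8.87% were higher and 39% lower. The list medians were 1.95, -0.74, 0.08, 0.34 and 0.56, against 0.48 over all genes. The number of list genes with 0 UMIs in T or NK cell-like cells was 9, 7, 0, 3 and 0. With those set to 3 UMIs the list medians were 3.92, 0.01, 0.04, 0.14 and 0.49, for which no matching median over all genes was computed. In the first list 10 of 13 genes were called lower while the median was above 0. The medians depend on what is set for 0 UMIs, and a call at 0 UMIs can lie below detection. For Fut7, called lower, 3 UMIs would have been 29.5-fold higher. No direction is therefore given for the lists with genes at 0 UMIs. Skap1, an adaptor that couples the T cell receptor to LFA-1, was 590.3-fold higher in T or NK cell-like cells (897 against 1.52 CPM), and Spn, a sialomucin of leukocytes, was 98.4-fold higher from 5 against 10 UMIs (ratio interval 26.4 to 316).

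The genes whose levels followed each member most closely were found over the 10 cell types with at least 20 cells, by Pearson's correlation of log2(CPM + 1) among 12448 genes. All 10 points come from 1 library, and the coefficients are descriptions. Vcam1 was followed by Fam114a1 (0.927), Tifa (0.911) and Tnfrsf1a (0.901), the first receptor of tumour necrosis factor. Icam1 was followed by Slc25a25 (0.922), Lrrk1 (0.913) and Chst15 (0.912), and Icam2 by Flt4 (0.996), S1pr4 (0.984) and Apol10b (0.979). Itgal was followed by Osgin1 (0.972), Irf4 (0.963) and Clec2i (0.961), Itga4 by Nans (0.953), Ern1 (0.937) and Wdhd1 (0.927), and Itgb1 by Slc39a8 (0.929), Kif23 (0.925) and C130074G19Rik (0.913). Itgb2 and Selplg shared a pair of their nearest genes, Ly9 (0.980 for Itgb2, 0.972 for Selplg) and Bin2 (0.978 for Itgb2, 0.985 for Selplg). Arhgap45 (0.979) was also near Itgb2, and Dennd4a (0.969) near Selplg.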

How the data were processed

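The deposited matrix holds UMI counts per gene and cell barcode from 1 library of the 10x Chromium 3' kit, which the authors ran through Cell Ranger 8.0.1. The submitters' processing notes name GRCm39 as the build; which gene annotation was used is not given in the sources read, and the library has no replicate. The members, lists and markers were chosen with earlier results of these data known.

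Barcodes with at least 500 genes and at most 15% mitochondrial UMIs were kept (6485 of 6672). Each cell was given the type with the largest share of its markers detected, if at least 3 were detected and the next type lay at least 0.125 behind, and the 410 cells that failed this, possible doublets among them, were left out. Of 141 marker symbols 2 were not matched, and 1 of 62 list symbols. The gate, the sub-clusters and the alternatives without cells holding C1q RNA or without endothelial sub-clusters 5 and 7 were set after seeing the data. Counts were summed per type and scaled to 1000000 UMIs. Levels have exact Poisson intervals, ratios exact conditional binomial intervals and shares Clopper-Pearson intervals, all at 95% and for counting error only. A gene counted as different at 4-fold or more with at least 10 UMIs over both groups, and 0 counts were bounded at 3 per group. Log2 ratios had 0.5 UMIs added. Sub-clusters were made without the members (Leiden, resolution 0.5, 20 components of 2000 variable genes, 15 neighbours, seed 0). Named list genes are the 3 of each list farthest from a ratio of 1 among those called, of which the text gives some, and likeness was ranked among genes with at least 100 UMIs outside the gating markers. The ratio intervals and the 4-fold rule were tested on simulated Poisson counts, which hold no further spread between cells or animals. The gate, the zones and the sub-clusters were not tested in this way. Tools were Python 3.11.15 with matplotlib 3.10.9, scikit-learn 1.9.0, igraph 0.11.9, scanpy 1.11.5, pandas 2.3.3, scipy 1.17.1 and numpy 2.4.6, and edgeR 4.0.16 for TMM factors as an alternative.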

Additional observations from a re-analysis of the deposited data

How the results depend on the processing

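No paired analysis was possible because each group comes from 1 sample. Of 347 member ratios recomputed under 9 other ways of processing and the ways added after seeing the data, 235 stayed within the counting interval and 110 moved beyond it in the same direction or without a call, while 2 reversed. Those were Itga4 in venous-like over capillary-like cells, at 1.533 with cells thinned to 2000 UMIs, and Selplg in arterial-like over capillary-like cells, at 1.179 without cells holding C1q RNA. The members at least 4-fold higher on the vessel and barrier side, and in endothelial-like over microglia-like cells, were 1 in place of 2 when thinned or with at least 50 UMIs, as Sele was lost. The members lower in venous-like cells were 1 in place of 2 without Scrublet doublets, with the stricter gate, with cells weighed equally and without C1q RNA (Itga4 lost), 1 without sub-clusters 5 and 7 (Selplg in place of Itgb2 and Itga4), and 0 with Leiden clusters. The members lower in arterial-like cells were 2 in place of 4 without Scrublet doublets and without C1q RNA (Itgal and Selplg lost). The cause was not tested. Over all these ways the venous-like over capillary-like ratio ran from 5.036 to 8.492 for Vcam1 and from 7.226 to 11.41 for Icam1. TMM factors shifted all log2 ratios by -0.43 for the sides, and Itgb1 was then at 1.11 there. No Leiden cluster was named T or NK cell-like, so that comparison has no value under that choice. The 37 venous-like, 52 arterial-like and 22 T or NK cell-like cells limit the depth of those comparisons.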

Other observations

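The 410 cells that were given no type also held the members. Their Vcam1 level was 244 CPM, Icam1 99.3 CPM, Icam2 19.6 CPM, Itgal 34.9 CPM, Itgb2 128 CPM, Itga4 89.1 CPM, Itgb1 215 CPM and Selplg 138 CPM, with Sele and Selp at 0. The commonest pairs of best and next type among them were endothelial-like with microglia-like (31 cells) and microglia-like with choroid plexus-like (31 cells).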
